A study of Homo sapiens with 15 samples.

Results

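The ATP-binding cassette (ABC) genes described here are the 30 of 16604 genes in the deposited expression table whose identifier has a symbol made of ABC, a family letter from A to G and a number. Pseudogenes were left out, and 3 rows with a pseudogene symbol were removed in this way. Of 47 identifiers with such a symbol, 17 have no row and were not analysed here, among them ABCB4, ABCB5, ABCB11, ABCG5 and ABCG8. The rule uses gene names alone. They fall into 6 groups by known role: 8 multidrug efflux pumps, 9 exporters of sterols and phospholipids, 4 mitochondrial transporters, 4 peroxisomal and lysosomal transporters, 4 soluble proteins with a pair of ATP-binding cassettes, and ABCC6.

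ABC proteins bind and hydrolyse ATP, and most couple this to moving a substrate across a membrane. Those of the B, C and G families that sit in the plasma membrane can pump drugs, conjugates and nucleotide analogues out of cells, and ABCB1 (P-glycoprotein), ABCG2 and several ABCC proteins are known as multidrug resistance pumps. ABCB1 is best known for hydrophobic drugs such as taxanes and anthracyclines, whereas ABCC2 is known as an exporter of glutathione conjugates and has long been studied in cisplatin resistance. The A family and part of the G family move cholesterol and phospholipids, smaller proteins of the B and D families that act in pairs serve mitochondria, lysosomes and peroxisomes, and the E and F proteins lack membrane domains and act in translation.

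RNA was measured by polyA RNA sequencing in 5 human lines of high-grade serous ovarian cancer with 3 biological replicates each. Ovcar4Parental is the platinum-sensitive OVCAR4 line. Ov4Cis (cisplatin resistant) and Ov4Carbo (carboplatin resistant) were raised from it in increasing drug until the inhibitory dose (IC50) had grown 2 to 10 times. Ov4Carbo4 and Ov4Carbo7 are lines grown out from single cells of Ov4Carbo, so each is 1 clone, and each resistant line is 1 derivation. All were grown in DMEM with serum. Cisplatin and carboplatin are platinum drugs that crosslink DNA. Values are log2 RPKM, that is reads per kilobase of a gene corrected for sequencing depth, and the depth behind them is unknown, so the spread between replicates is the measure of precision. A member was called higher or lower at a Benjamini-Hochberg adjusted p under 0.05 over all 16604 genes and a log2 fold change of at least 1 (2-fold), from limma fitted to all 15 samples.

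The median of each sample was 2.77, and the lowest value in any sample was -8.18. The replicates of Ov4Carbo differed most from each other. The root mean square difference, averaged over pairs of replicates, was 0.69 log2 units over all genes in Ov4Carbo and 0.34 to 0.48 in the other lines. Over the 30 ABC genes it was 1.04 in Ov4Carbo and 0.25 to 0.61 elsewhere. The numbers in the sample titles form 2 series, the first with replicate 1 of Ov4Carbo and every sample of the lines from single cells, the second with all the rest. Nothing in the labels names the series a batch, and the comparisons of Ov4Carbo7 with Ov4Carbo4 and of Ov4Cis with the parental line lie within 1 series. Of 10 markers of serous carcinoma epithelium, 9 had a line mean of at least 0 in the parental, Ov4Carbo and Ov4Carbo4 lines, 8 in Ov4Carbo7 and 5 in Ov4Cis. PAX8 lay at 5.85 to 6.74 in every line, WT1 was below 0 in every line, and the summed RPKM of the epithelial markers was 915 to 1102 in parental samples, 510 to 563 in Ov4Carbo, 532 to 601 in Ov4Carbo4, 427 to 443 in Ov4Carbo7 and 336 to 436 in Ov4Cis samples. Of 8 fibroblast markers 5 were in the table. COL1A1 had line means of 2.26 to 3.63, and COL1A2 was at 1.39 in the parental line and below 0 in the others. LUM, PDGFRB and THY1 were below 0 in every line. Of 6 immune markers only CD14 was in the table, at line means of -1.34 to 0.58, and of the endothelial markers CDH5 reached 5.13 in Ov4Cis and 4.42 in Ov4Carbo4 while KDR stayed below 0 in every line. The part of these marker differences in the ABC results was not tested.

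The ABC genes differed widely in level. In every line the highest line mean belonged to ABCC1, between 5.70 and 5.98, and the lowest to ABCB1 in 4 lines and to ABCA13 in Ov4Carbo7 (-2.97). Every sample was at or above 0 for 21 of the 30 genes, and 20 had a mean of at least 1 over the 15 samples. The moderated F-test for any difference among the 5 lines passed in 25 of 30, against 76.9% of all genes. The 5 that did not pass were ABCC1, ABCC6, ABCB10, ABCE1 and ABCF2, with adjusted p between 0.0965 and 0.360. The range of the 5 line means had a median of 1.15 log2 units over the ABC genes and 0.86 over all genes, and ran from 0.28 for ABCC1 to 9.46 for ABCB1.

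**Figure D1:**
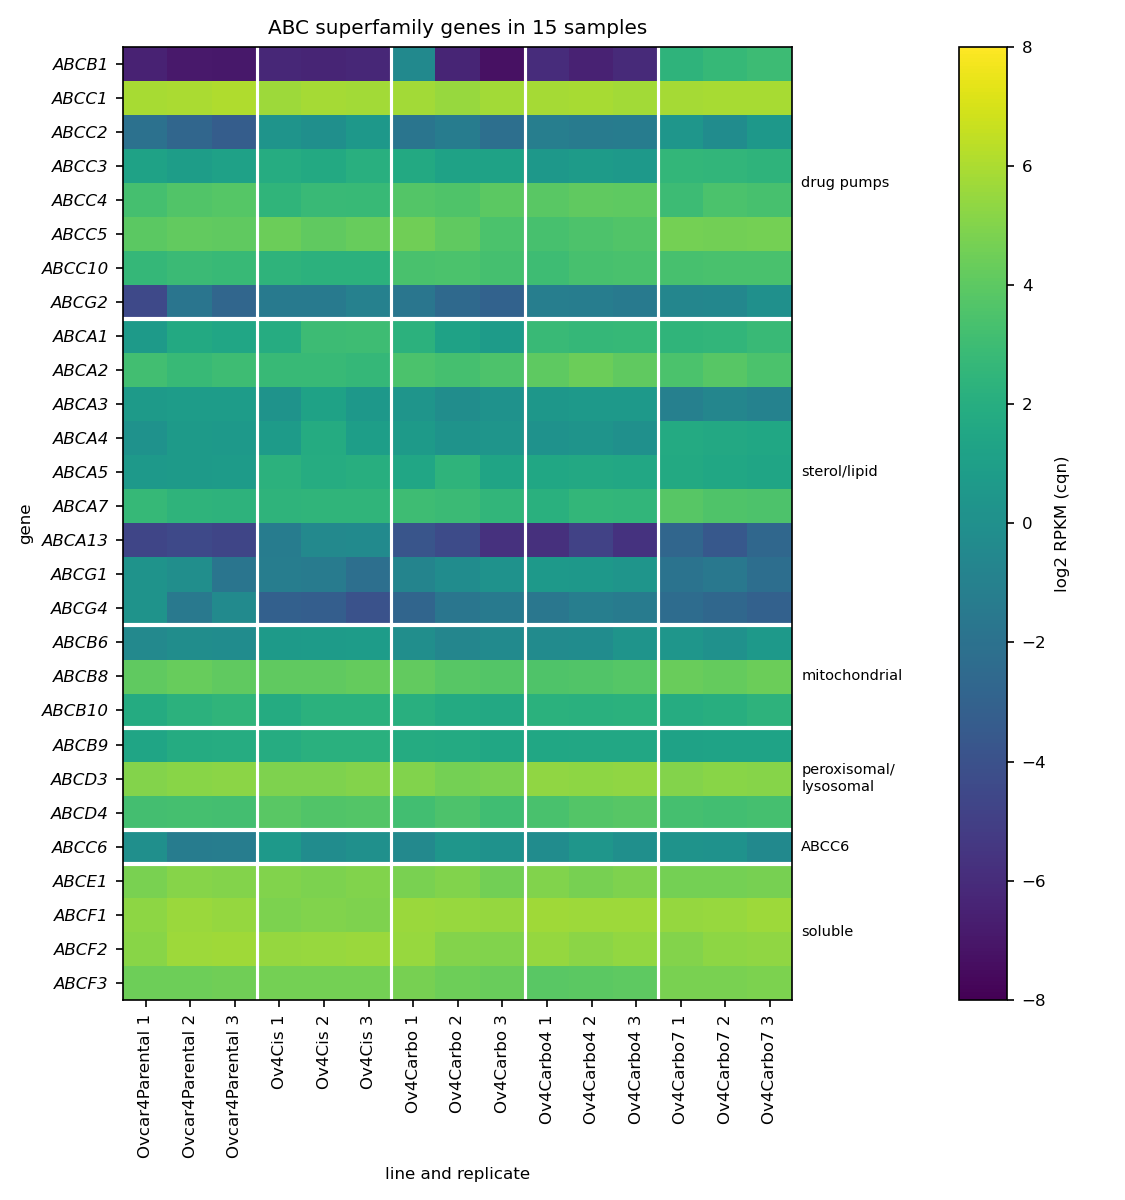
Log2 RPKM (colour) of 28 ABC genes (rows, grouped by role) in the 15 samples (columns, by line and replicate). ABCB1 is low in all samples but the 3 of Ov4Carbo7 and replicate 1 of Ov4Carbo, while ABCC1 and the ABCE and ABCF genes are high throughout.

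Against the parental line, Ov4Carbo7 had the most calls of the 4 resistant lines. In Ov4Carbo7, 11 of 30 members were called (36.7%, against 17.0% of all genes), 8 higher and 3 lower. In Ov4Cis 7 were called (23.3%, against 15.9% of all genes), 6 higher and 1 lower. In Ov4Carbo4 4 were called (13.3%, against 15.1%), all 4 higher, and in Ov4Carbo 2 were called (6.67%, against 12.7%), 1 higher and 1 lower. Among all genes, calls were near evenly split: 9.26% higher and 7.75% lower in Ov4Carbo7, 8.46% and 7.41% in Ov4Cis, 7.43% and 7.7% in Ov4Carbo4, and 5.76% and 6.93% in Ov4Carbo. The median log2 fold change of the members was 0.32 in Ov4Carbo7 and 0.12 in Ov4Cis, against -0.02 in Ov4Carbo4 and -0.01 in Ov4Carbo, and that of all genes lay between 0.02 and 0.07. These 4 comparisons share the 3 parental samples. The samples of a line lay wholly above or below the parental ones for 19 of 30 members in Ov4Carbo7 (56.5% of all genes), 19 in Ov4Cis (53.4%), 17 in Ov4Carbo4 (58.1%) and 6 in Ov4Carbo (38.4%). In the 8 comparisons made, 18 members were called at least once and 12 in none. Counts in low members depend on the scale: on log2(RPKM + 1), which shrinks differences between low values, limma called 4, 1, 2 and 0 members in Ov4Carbo7, Ov4Cis, Ov4Carbo4 and Ov4Carbo. With 1 sample left out the Ov4Carbo count ran from 1 (without parental replicate 3 or Ov4Carbo replicate 2) to 4 (without Ov4Carbo replicate 3). A term for the title series rests on Ov4Carbo replicate 1. With it, only ABCB1 and ABCC2 (higher) and ABCA3 (lower) kept their calls in Ov4Carbo7. ABCA5 was added there, so that 3 were called higher and 1 lower. In Ov4Carbo4 the term ended the calls of ABCC2, ABCG2 and ABCA1. It added ABCA5 higher and ABCA13, ABCB1 and ABCC5 lower, so that 2 were called higher and 3 lower in Ov4Carbo4.

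ABCB1 (ENSG00000085563, chromosome 7) encodes P-glycoprotein, the classical multidrug efflux pump. It lay at -6.45, -6.88 and -7.00 in the parental samples and at -6.23, -6.37 and -6.23 in Ov4Cis. Ov4Carbo had -0.41, -6.37 and -7.30, Ov4Carbo4 had -6.00, -6.45 and -6.11, and Ov4Carbo7 had 2.41, 2.71 and 2.94. All 3 Ov4Carbo7 samples lay above every other sample, replicate 1 of Ov4Carbo came next, and the remaining 11 samples lay near the bottom of the table's range. As RPKM, the Ov4Carbo7 samples had 5.30, 6.52 and 7.66, replicate 1 of Ov4Carbo had 0.753, and the others had 0.00635 to 0.0157. The value in replicate 1 of Ov4Carbo was 11.6% of the Ov4Carbo7 mean. In these bulk samples, fewer cells with the transcript and less of it per cell cannot be told apart.

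The log2 fold change of ABCB1 in Ov4Carbo7 was 9.46 against the parental line (SE 1.24, 95% interval 6.76 to 12.15, limma adjusted p = 6.79e-05). It was 8.87 against Ov4Carbo4 (adjusted p = 8.20e-05) and 7.38 against Ov4Carbo (adjusted p = 6.97e-04), each with 3 samples a line and no overlap. Because the lower side sits near the floor of the table, the size is uncertain, and on log2(RPKM + 1) the same differences were 2.88, 2.87 and 2.62, all called. In the other 3 resistant lines the difference from the parental line was 0.50, 0.59 and 2.08 for Ov4Cis, Ov4Carbo4 and Ov4Carbo, with adjusted p of 0.794, 0.745 and 0.215. Replicate 1 of Ov4Carbo decided the Ov4Carbo value: without it, ABCB1 in Ov4Carbo against the parental line came to -0.06 (adjusted p = 0.871), and in Ov4Carbo7 against Ov4Carbo to 9.52 (adjusted p = 6.38e-09). With a term for the title series, which rests on that replicate alone, the difference from the parental line was 3.03 in Ov4Carbo7 (adjusted p = 7.63e-04) and turned to -5.84 in Ov4Carbo4 (adjusted p = 6.72e-06).

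RefSeq (GRCh38.p14) annotates 2 start sites for ABCB1, and the 250 bases before each are shown because this gene had the widest range of all members. The first lies at chr7:87713296-87713545 and the second at chr7:87600885-87601134, both on the minus strand, and the second is downstream of the first along the gene. Sequences run 5′ to 3′ along the gene's strand and end 1 base before the start, and capitals mark matches to CCAAT (the CCAAT box), GGGCGG (the GC box), CACGTG (a palindromic E-box) or TGACNNNGC (the core of the antioxidant response element) on either strand.
ABCB1 first start: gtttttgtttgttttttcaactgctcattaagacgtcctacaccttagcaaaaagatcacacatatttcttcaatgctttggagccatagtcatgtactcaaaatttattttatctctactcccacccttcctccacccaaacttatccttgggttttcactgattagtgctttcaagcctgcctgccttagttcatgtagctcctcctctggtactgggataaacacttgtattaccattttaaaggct
ABCB1 second start: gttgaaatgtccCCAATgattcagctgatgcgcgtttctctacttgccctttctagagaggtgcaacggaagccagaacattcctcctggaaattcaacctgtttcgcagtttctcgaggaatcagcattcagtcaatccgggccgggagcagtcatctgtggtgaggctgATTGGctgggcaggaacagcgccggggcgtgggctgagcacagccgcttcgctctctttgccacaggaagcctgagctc
The window before the second start holds 2 matches to CCAAT, beginning 238 bases (read forward) and 79 bases (read as ATTGG on the given strand) before the start. The window before the first holds none of the 4 motifs, and its GC content is 39.2%, against 55.6% for the second. These values cannot tell which start was used. In the whole 300-base windows of the table, CCAAT occurs in 6 of 35 windows of the 24 members that matched (17.1%) and in 34.6% of all 35116 windows. GGGCGG occurs in 62.9% against 45.0%, CACGTG in 20.0% against 7.26% and TGACNNNGC in 31.4% against 13.3%. A match is a description of letters, not a bound site.

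Genes beside ABCB1 on chromosome 7 were not higher with it as a block. Of 12 neighbours listed, 8 are in the table. In Ov4Carbo7 against the parental line their median log2 fold change was -0.55, against 0.02 for all genes, and 1 was called higher and 1 lower. Of these 8, the nearest on either side were CROT, a peroxisomal acyltransferase, at 0.08 and SLC25A40, a mitochondrial carrier, at -1.01 (called lower). Genes without a row may lie nearer and could not be read. Further out, TP53TG1 was at 0.03, DBF4 at -0.92, SRI at -0.45, TMEM243 at -0.64 and DMTF1 at -0.89. ELAPOR2, the outermost of the 8 on 1 side, was called higher in Ov4Carbo7 at 2.86. It was also called higher in Ov4Carbo at 3.05 and in Ov4Carbo4 at 2.32, lines in which ABCB1 was not called. It was named after its values were seen.

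**Figure D2:**
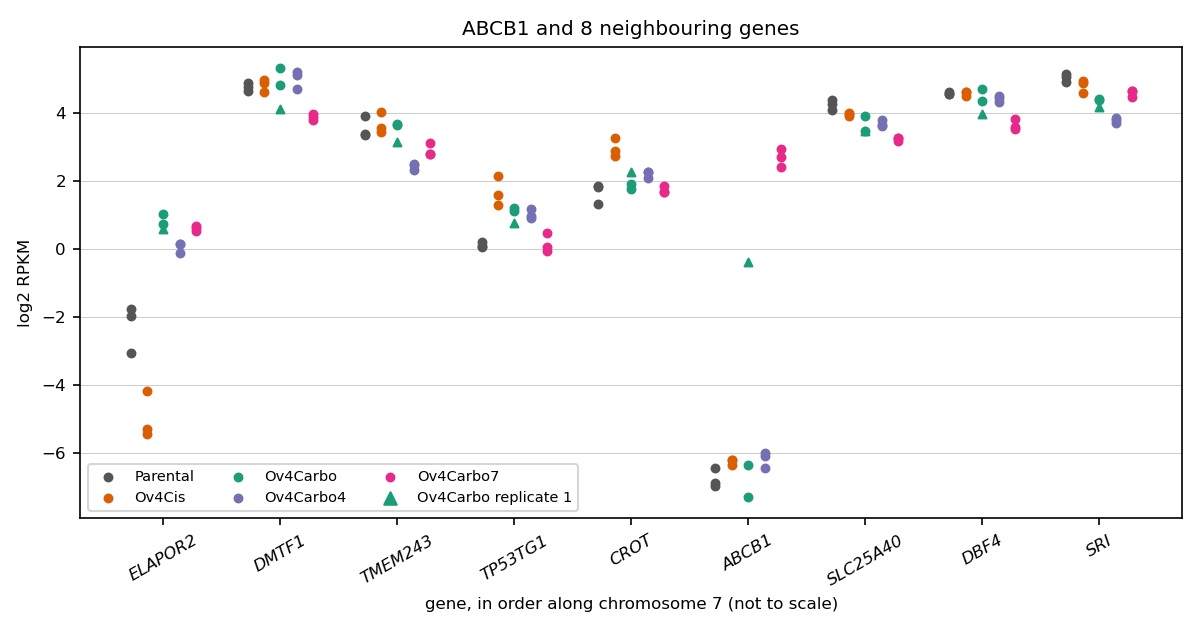
Log2 RPKM of ABCB1 and 8 neighbouring genes in order along chromosome 7 (x axis, not to scale), with 1 point per sample coloured by line and a triangle for replicate 1 of Ov4Carbo. ABCB1 spans -7.30 to 2.94 with the Ov4Carbo7 points on top, while CROT and SLC25A40, the nearest of the 8 on either side, show no such gap.

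ABCC2, ABCG2 and ABCA1 were each called higher against the parental line in the same 3 lines, Ov4Cis, Ov4Carbo4 and Ov4Carbo7. ABCC2 (ENSG00000023839, chromosome 10) encodes MRP2, a pump of glutathione and glucuronide conjugates. It lay at -2.01, -2.74 and -3.28 in the parental samples, at 0.26, -0.02 and 0.54 in Ov4Cis, and at -1.76, -1.28 and -2.17 in Ov4Carbo. The values were -1.13, -1.36 and -1.28 in Ov4Carbo4 and 0.39, -0.19 and 0.51 in Ov4Carbo7. Ov4Cis and Ov4Carbo7 overlapped each other and lay above every sample of the other 3 lines, and only Ov4Carbo overlapped the parental samples. The log2 fold change from the parental line was 2.94 in Ov4Cis (SE 0.31, adjusted p = 1.07e-05), 2.91 in Ov4Carbo7 (SE 0.31, adjusted p = 1.22e-05) and 1.42 in Ov4Carbo4 (SE 0.31, adjusted p = 0.00298). In Ov4Carbo it was 0.94 (adjusted p = 0.0327), under the 2-fold limit, and it was called without parental replicate 1 (1.28) or without Ov4Carbo replicate 3 (1.16). Against Ov4Carbo, ABCC2 was higher in Ov4Cis by 1.99 and in Ov4Carbo7 by 1.97, and Ov4Carbo7 exceeded Ov4Carbo4 by 1.49. On log2(RPKM + 1) none of these ABCC2 differences was called. Those from the parental line were then 0.92 in Ov4Cis, 0.91 in Ov4Carbo7 and 0.28 in Ov4Carbo4. The level stayed low throughout: the pump made up 1.34% of the summed pump RPKM in Ov4Cis, 1.02% in Ov4Carbo7 and 0.168% in the parental line.

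ABCG2 (ENSG00000118777, chromosome 4), the breast cancer resistance protein, exports topoisomerase inhibitors and urate. Its parental values were -4.44, -1.79 and -2.72, the widest spread of any parental pump, and those of Ov4Cis were -1.43, -1.46 and -0.94. Ov4Carbo had -1.71, -2.51 and -2.99, Ov4Carbo4 had -1.15, -1.24 and -1.49, and Ov4Carbo7 had -0.63, -0.59 and 0.02. The 3 called lines lay above all parental samples, and the highest Ov4Carbo sample did too while the other 2 overlapped. The log2 fold change was 2.58 in Ov4Carbo7 (SE 0.52, adjusted p = 0.00167), 1.70 in Ov4Cis (adjusted p = 0.0221) and 1.69 in Ov4Carbo4 (adjusted p = 0.0216). Without parental replicate 1, the lowest sample, ABCG2 came to 0.97 in Ov4Cis (adjusted p = 0.0654) and to 0.96 in Ov4Carbo4 (adjusted p = 0.0645), and both calls were lost. Each was also lost without 1 sample of its own line, Ov4Cis replicate 3 (adjusted p = 0.0769) and Ov4Carbo4 replicate 1 or 2 (adjusted p = 0.0612 and 0.0565). Against Ov4Carbo, Ov4Carbo7 was higher by 2.00 (adjusted p = 0.0102). On log2(RPKM + 1) ABCG2 was called in no comparison. Its differences from the parental line were then 0.61 in Ov4Carbo7, 0.29 in Ov4Cis and 0.28 in Ov4Carbo4.

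ABCA1 (ENSG00000165029, chromosome 9) loads cholesterol and phospholipid onto apolipoprotein A-I and is a classical target of the liver X receptors. It lay at 0.69, 1.71 and 1.44 in the parental samples, at 1.93, 2.96 and 3.05 in Ov4Cis, and at 2.30, 1.25 and 0.80 in Ov4Carbo. Ov4Carbo4 had 2.82, 2.64 and 2.75, and Ov4Carbo7 had 2.49, 2.51 and 2.87. All samples of Ov4Cis, Ov4Carbo4 and Ov4Carbo7 lay above the parental ones, and Ov4Carbo spanned both levels. The log2 fold change was 1.45 in Ov4Carbo4 (SE 0.38, adjusted p = 0.00952), 1.37 in Ov4Cis (adjusted p = 0.0139) and 1.34 in Ov4Carbo7 (adjusted p = 0.0136), and these were called on log2(RPKM + 1) too, at 1.15, 1.08 and 1.05. The Ov4Cis and Ov4Carbo7 calls of ABCA1 were lost without parental replicate 1 (adjusted p = 0.0627 and 0.0582), and the Ov4Cis call also without Ov4Cis replicate 2 or 3 (adjusted p = 0.0547 and 0.0610). Against Ov4Carbo, ABCA1 was higher in Ov4Carbo4 by 1.28, in Ov4Cis by 1.20 and in Ov4Carbo7 by 1.17. On log2(RPKM + 1) the first was called (1.01) and the others were not (0.95 in Ov4Cis and 0.91 in Ov4Carbo7). These 3 calls were lost without Ov4Carbo replicate 2 or 3, with adjusted p between 0.0549 and 0.117. The Ov4Carbo7 call was also lost without any 1 of the Ov4Carbo7 samples (adjusted p between 0.0518 and 0.0999). The Ov4Cis call was also lost without Ov4Cis replicate 2 or 3 (adjusted p = 0.103 and 0.113).

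The promoters of these 3 genes are shown because the genes were called in the same 3 lines. They are the 250 bases before the RefSeq start (GRCh38.p14) at chr10:99782390-99782639 on the plus strand for ABCC2, chr4:88158910-88159159 on the minus strand for ABCG2 (of its 5 windows in the table, 1 of an overlapping pair that hold the same matches) and chr9:104928156-104928405 on the minus strand for ABCA1. Capitals mark the same 4 motifs as above.
ABCC2: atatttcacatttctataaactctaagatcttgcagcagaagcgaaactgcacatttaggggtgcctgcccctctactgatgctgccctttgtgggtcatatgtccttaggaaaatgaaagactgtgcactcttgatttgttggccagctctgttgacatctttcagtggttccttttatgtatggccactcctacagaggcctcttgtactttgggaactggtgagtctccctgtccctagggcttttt
ABCG2: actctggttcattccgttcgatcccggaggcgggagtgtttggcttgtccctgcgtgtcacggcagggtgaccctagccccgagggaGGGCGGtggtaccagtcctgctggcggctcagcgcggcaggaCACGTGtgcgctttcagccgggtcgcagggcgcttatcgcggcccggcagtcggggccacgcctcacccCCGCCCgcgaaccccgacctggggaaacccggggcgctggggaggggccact
ABCA1: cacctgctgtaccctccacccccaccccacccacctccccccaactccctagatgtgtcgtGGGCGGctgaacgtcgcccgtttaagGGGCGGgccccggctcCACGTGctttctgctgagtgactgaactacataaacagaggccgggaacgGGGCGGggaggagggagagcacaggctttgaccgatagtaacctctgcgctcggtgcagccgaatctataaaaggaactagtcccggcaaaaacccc
The ABCC2 window holds none of the motifs. The ABCG2 window holds GGGCGG at 163 bases before the start, its reverse complement CCGCCC at 52 and CACGTG at 121. The ABCG2 windows outside the overlapping pair, not shown, hold none of the motifs. ABCA1 has GGGCGG at 189, 163 and 97 bases and CACGTG at 147 bases before the start. No motif was shared by all 3 windows, no matches overlapped, and GC content was 45.6%, 71.2% and 61.6% for ABCC2, ABCG2 and ABCA1.

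ABCC3 (ENSG00000108846, chromosome 17) encodes MRP3, an exporter of glucuronides and bile acids. Its values were 1.24, 0.89 and 1.13 in the parental samples, 1.90, 1.71 and 2.10 in Ov4Cis, and 1.72, 1.22 and 1.20 in Ov4Carbo. Ov4Carbo4 was lowest at 0.53, 0.77 and 0.65, and Ov4Carbo7 was highest at 2.57, 2.52 and 2.41. Neither of these lines overlapped any other. In Ov4Carbo7 ABCC3 was higher by 1.42 than in the parental line (SE 0.15, adjusted p = 1.44e-05), by 1.12 than in Ov4Carbo (adjusted p = 1.76e-04) and by 1.85 than in Ov4Carbo4 (adjusted p = 1.43e-06). The first and the last were called on log2(RPKM + 1) as well, at 1.09 and 1.37. The lines from single cells of Ov4Carbo thus lay at opposite ends of the ABCC3 range.

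ABCC1 (ENSG00000103222, chromosome 16), MRP1, exports glutathione conjugates and was the most abundant pump. It lay between 5.51 and 6.08 in all 15 samples, with line means of 5.98 ± 0.09 (SD, n = 3) in the parental line and 5.70 ± 0.16 in Ov4Carbo at the extremes. The F-test did not pass (adjusted p = 0.114), and the difference of each resistant line from the parental line was between -0.28 and -0.10. The largest, in Ov4Carbo, had an adjusted p of 0.0416, far under the 2-fold limit. The 95% intervals of the 4 differences together ran from -0.50 to 0.12, so a 2-fold change of ABCC1 lies outside them.

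ABCC4, ABCC5 and ABCC10 were called in comparisons between resistant lines and in none with the parental line. ABCC4 (ENSG00000125257, chromosome 13), MRP4, exports cyclic nucleotides and prostaglandins. It lay at 3.31, 3.67 and 3.78 in the parental samples, 2.48, 2.82 and 2.79 in Ov4Cis, 3.73, 3.56 and 4.0 in Ov4Carbo, and 3.93, 4.12 and 4.02 in Ov4Carbo4. Ov4Carbo7 had 2.98, 3.49 and 3.36. Ov4Cis lay below every sample of the other lines. Its difference was -0.89 from the parental line (adjusted p = 0.00113), under the 2-fold limit, and -1.07 from Ov4Carbo (SE 0.17, adjusted p = 4.09e-04), which fell under the limit, to -0.96, without Ov4Cis replicate 1 or Ov4Carbo replicate 3. ABCC5 (ENSG00000114770, chromosome 3), MRP5, exports nucleotide analogues. Its values were 4.0, 4.14 and 4.10 in parental, 4.38, 4.07 and 4.25 in Ov4Cis, 4.51, 4.10 and 3.44 in Ov4Carbo, and 3.36, 3.55 and 3.64 in Ov4Carbo4. Ov4Carbo7 had 4.69, 4.59 and 4.64. Ov4Carbo7 lay above all other samples and Ov4Carbo4 below all but 1 sample of Ov4Carbo. The difference between these clones was 1.12 (SE 0.20, adjusted p = 5.96e-04), and each differed from the parental line by 0.56 in opposite directions (adjusted p = 0.0428 for Ov4Carbo7 and 0.0446 for Ov4Carbo4).

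ABCC10 (ENSG00000124574, chromosome 6), MRP7, is known to export taxanes. It lay at 2.68, 2.90 and 2.75 in the parental samples, 2.40, 2.28 and 2.29 in Ov4Cis, 3.39, 3.50 and 3.26 in Ov4Carbo, and 3.05, 3.32 and 3.40 in Ov4Carbo4. Ov4Carbo7 had 3.36, 3.41 and 3.43. The cisplatin line lay below all parental samples and the 3 carboplatin lines lay above them, without overlap. The differences from the parental line were -0.45 in Ov4Cis and 0.61, 0.48 and 0.62 in Ov4Carbo, Ov4Carbo4 and Ov4Carbo7, each with an adjusted p of at most 0.00533 but under the 2-fold limit. Ov4Cis was lower than Ov4Carbo (log2 fold change -1.06, SE 0.11, adjusted p = 1.31e-05).

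**Figure D3:**
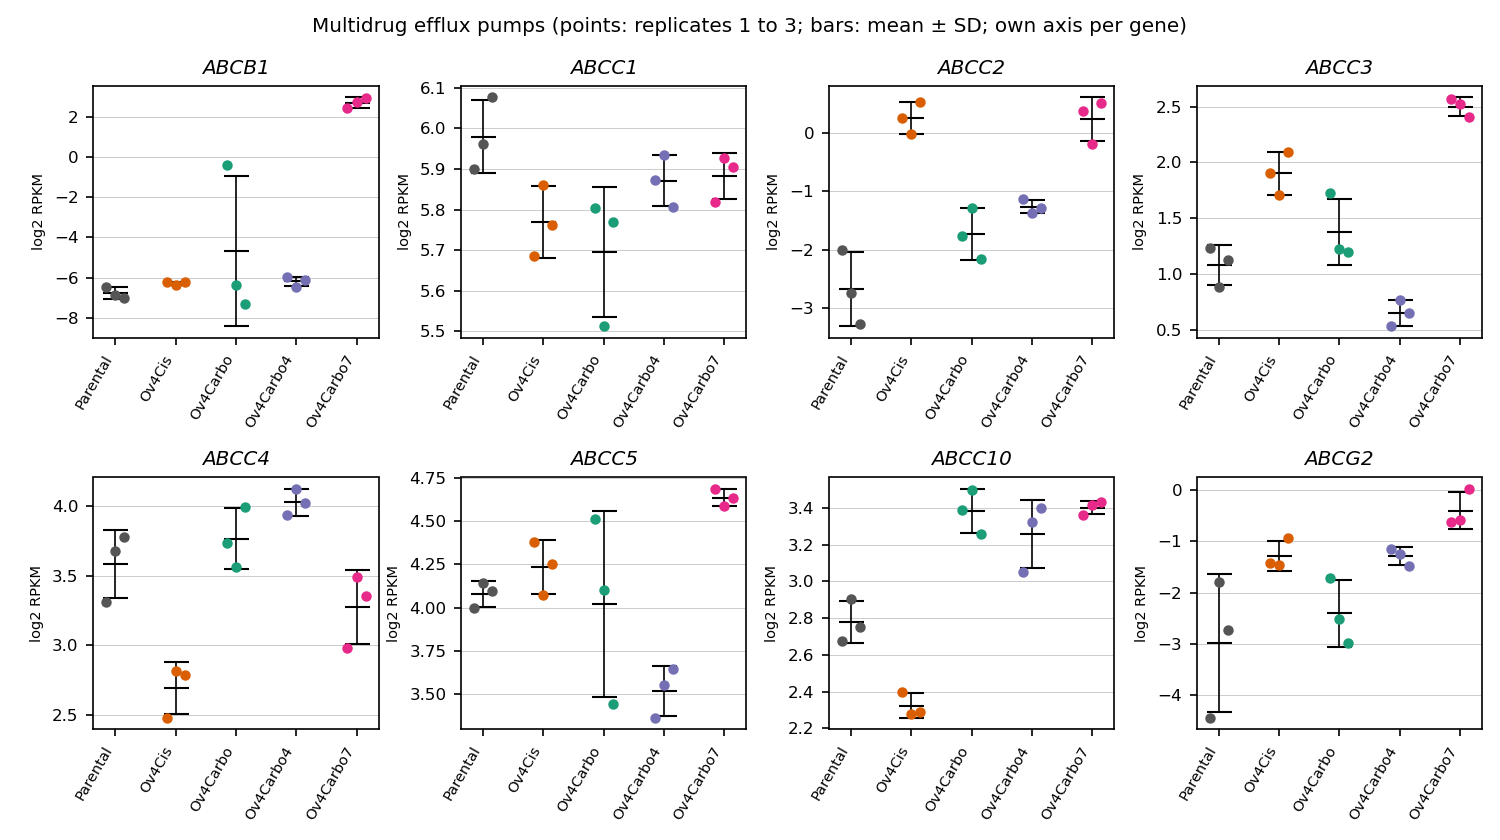
Log2 RPKM of the 8 multidrug efflux pumps (panels, each with its own y axis) by line, with 1 point per sample and bars for the line mean ± SD (n = 3). ABCB1 is high in Ov4Carbo7 and in 1 Ov4Carbo sample, ABCC2 is highest in Ov4Cis and Ov4Carbo7, and ABCC1 spans only 5.51 to 6.08.

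Summed over the 8 pumps on the RPKM scale, which is per kilobase, the level was 101.5 ± 6.49 (SD, n = 3) in the parental line, 90.4 ± 1.69 in Ov4Cis, 96.5 ± 9.48 in Ov4Carbo and 98.4 ± 4.09 in Ov4Carbo4. It was 118.5 ± 4.23 in Ov4Carbo7. The Ov4Carbo7 samples, at 113.6 to 121.2, lay above all others. ABCC1 made up 62.2 ± 1.23% of the sum in the parental line and 49.9 ± 0.54% in Ov4Carbo7. In Ov4Carbo7 it was followed by ABCC5 (21.0%), ABCC10 (8.93%), ABCC4 (8.24%) and ABCB1 (5.47 ± 0.83%), then ABCC3 (4.79%). In the parental line ABCB1 was 0.00922% of the sum. As a group, 4 of the 8 pumps were called higher in Ov4Carbo7 (against 9.26% of all genes), 2 in Ov4Cis (ABCC2, ABCG2, against 8.46%), and 2 in Ov4Carbo4 (the same 2, against 7.43%). With the title series term, ABCB1 and ABCC2 were called higher in Ov4Carbo7, and in Ov4Carbo4 neither ABCC2 nor ABCG2 was called while ABCB1 and ABCC5 were called lower. In Ov4Carbo limma called 0 higher, where 2 had an unadjusted p under 0.05. It called 0 lower in any resistant line, where 2, 1, 2 and 0 were lower at an unadjusted p under 0.05 in Ov4Cis, Ov4Carbo, Ov4Carbo4 and Ov4Carbo7. The median log2 fold change of the group was 1.02 in Ov4Carbo7, 0.33 in Ov4Cis, 0.46 in Ov4Carbo4 and 0.44 in Ov4Carbo, while that of all genes was at most 0.07.

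Among the 9 sterol and phospholipid exporters, all passed the F-test, as did 76.9% of all genes. Against the parental line 4 were called higher and 3 lower in Ov4Carbo7 (17.0% of all genes called), 3 and 1 in Ov4Cis (15.9%), 1 and 1 in Ov4Carbo (12.7%), and 2 higher in Ov4Carbo4 (15.1% in either direction). Beside ABCA1, the members with the higher levels were ABCA2, ABCA4, ABCA5 and ABCA7. ABCA2 (ENSG00000107331, chromosome 9), a lysosomal lipid transporter, lay at 3.16, 2.75 and 3.03 in the parental samples, 2.80, 2.78 and 2.66 in Ov4Cis, 3.47, 3.29 and 3.51 in Ov4Carbo, and 4.03, 4.40 and 4.09 in Ov4Carbo4. Ov4Carbo7 had 3.49, 3.82 and 3.46. Ov4Carbo4 lay above every other sample and was higher than the parental line by 1.20 (SE 0.14, adjusted p = 3.29e-05). ABCA7 (ENSG00000064687, chromosome 19), a phospholipid exporter, had its highest values in Ov4Carbo7, at 3.82, 3.57 and 3.51, against 2.72, 2.39 and 2.32 in the parental line. The other lines lay at 2.41, 2.47 and 2.47 (Ov4Cis), 3.01, 2.92 and 2.51 (Ov4Carbo), and 2.17, 2.60 and 2.50 (Ov4Carbo4), all below Ov4Carbo7. Ov4Carbo7 was higher by 1.16 than the parental line (adjusted p = 9.84e-05) and by 1.21 than Ov4Carbo4 (adjusted p = 5.10e-05).

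ABCA4 (ENSG00000198691, chromosome 1), a retinoid flippase of photoreceptors, was near 0 in most lines. It lay at 0.17, 0.69 and 0.61 in the parental samples, 0.77, 1.85 and 0.95 in Ov4Cis, 0.72, 0.20 and 0.35 in Ov4Carbo, and 0.16, 0.27 and 0.05 in Ov4Carbo4. Ov4Carbo7 had 1.80, 1.66 and 1.53. Ov4Carbo7 lay above all samples but replicate 2 of Ov4Cis, and was called higher than the parental line by 1.17 (adjusted p = 0.00213), than Ov4Carbo by 1.24 and than Ov4Carbo4 by 1.5. ABCA5 (ENSG00000154265, chromosome 17), a transporter of lysosomes and late endosomes, had all 12 resistant samples above the 3 parental ones. It lay at 0.67, 0.72 and 0.78 in the parental line, 2.27, 1.88 and 2.04 in Ov4Cis, 1.47, 2.39 and 1.32 in Ov4Carbo, and 1.53, 1.69 and 1.58 in Ov4Carbo4. Ov4Carbo7 had 1.74, 1.56 and 1.40. The log2 fold change of ABCA5 was 1.34 in Ov4Cis (SE 0.22, adjusted p = 4.48e-04) and 1.00 in Ov4Carbo (adjusted p = 0.00450). The Ov4Carbo value sat at the 2-fold limit and fell under it without parental replicate 1 (0.98) or Ov4Carbo replicate 2 (0.67).

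**Figure D4:**
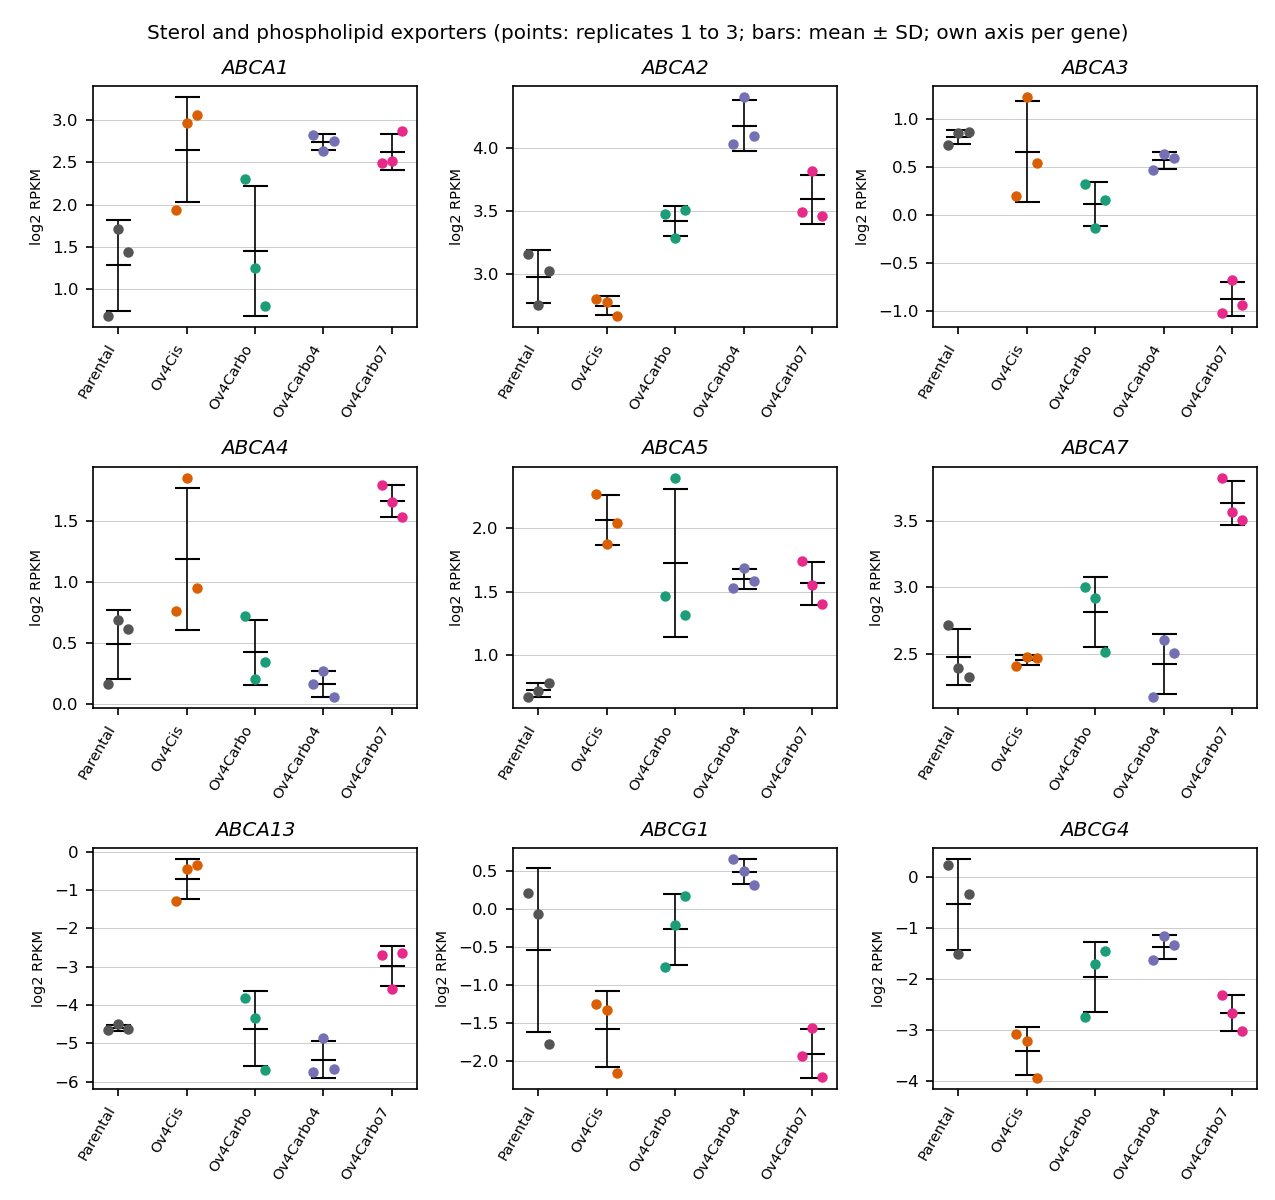
Log2 RPKM of the 9 sterol and phospholipid exporters (panels, each with its own y axis) by line, with 1 point per sample and bars for the line mean ± SD (n = 3). ABCA2 is highest in Ov4Carbo4, ABCA7 is highest in Ov4Carbo7, ABCA13 is highest in Ov4Cis, and ABCA5 is lowest in the parental line.

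The remaining 4 exporters had line means below 1 in every line, and they are named here after their values were seen. On log2(RPKM + 1) none of the 4 was called in any comparison. ABCA13, a very large member of the A family, lay at -4.65, -4.50 and -4.63 in the parental samples and at -1.29, -0.46 and -0.35 in Ov4Cis, a difference of 3.89 (SE 0.44, adjusted p = 2.14e-05). In Ov4Carbo7 it lay at -2.70, -3.58 and -2.64, higher by 1.62 (adjusted p = 0.0105), whereas Ov4Carbo and Ov4Carbo4 ranged from -5.75 to -3.80. On log2(RPKM + 1) the ABCA13 differences from the parental line were 0.65 in Ov4Cis and 0.12 in Ov4Carbo7. With the title series term the Ov4Carbo7 difference was 0.39 (adjusted p = 0.710). ABCA3, a lamellar body phospholipid transporter of the lung, was lower in Ov4Carbo7 (log2 fold change -1.70, adjusted p = 4.60e-05), with samples at -1.02, -0.68 and -0.93 against 0.73, 0.86 and 0.86. Its gene overlaps the pseudogene ABCA17P, and how the counting assigned shared reads is not given in the sources used here.

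ABCG1 and ABCG4, which pass cholesterol to lipoproteins, were low. ABCG4 lay at 0.23, -1.51 and -0.33 in the parental samples and at -3.09, -3.23 and -3.96 in Ov4Cis, lower at a log2 fold change of -2.89 (adjusted p = 1.93e-04), and it was lower in Ov4Carbo7 at -2.14 (adjusted p = 0.00160). In Ov4Carbo the ABCG4 difference was -1.44 (adjusted p = 0.0222), but the samples, at -2.75, -1.71 and -1.46, overlapped the lowest parental one, and the call was lost without Ov4Carbo replicate 1 (adjusted p = 0.0698) or parental replicate 1 or 3 (adjusted p = 0.0832 and 0.0694). ABCG1 lay at 0.22, -0.07 and -1.78 in the parental samples, 0.66, 0.51 and 0.33 in Ov4Carbo4 and -1.93, -1.56 and -2.21 in Ov4Carbo7. Against the parental line the ABCG1 call in Ov4Carbo7 (-1.36, adjusted p = 0.0259) rested on overlapping samples and was lost in 4 of 15 leave-one-out fits. Between Ov4Carbo7 and Ov4Carbo4 the difference was -2.40 (SE 0.44, adjusted p = 6.58e-04) with no overlap. ABCA1 and ABCG1, which share liver X receptor control as textbook knowledge, had called differences of opposite sign in Ov4Carbo7 against Ov4Carbo, 1.17 and -1.64. Neither call held on log2(RPKM + 1), at 0.91 and -0.54. With the title series term they were lost too, at 0.32 and -1.15 (adjusted p = 0.661 and 0.229). The ABCA1 call was also lost with only the groups compared (adjusted p = 0.0756) and without any 1 of the Ov4Carbo7 samples.

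Among the peroxisomal and lysosomal transporters, ABCD3 (peroxisomal), ABCD4 (lysosomal cobalamin transport) and ABCB9 (a lysosomal peptide transporter) were called in none of the 8 comparisons, and their line means ranged over 0.55, 0.52 and 0.82.

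Among the mitochondrial transporters, ABCB6, known for porphyrin transport, was called. It lay at -0.48, -0.16 and -0.20 in the parental samples and at 0.73, 0.78 and 0.87 in Ov4Cis, higher by 1.08 (SE 0.18, adjusted p = 4.92e-04), a value that fell to 0.98 without parental replicate 1. Against Ov4Carbo it was higher by 1.16. ABCB8 and ABCB10 were called in no comparison, with ranges of line means of 0.65 and 0.35. The 4 soluble proteins, ABCE1 (ribosome recycling) and ABCF1, ABCF2 and ABCF3, were called in none either: their samples all lay between 3.93 and 5.74 and their line means ranged over 0.29 to 0.82. Within that range ABCF1 was lowest in Ov4Cis (4.83, 4.96 and 4.90, every other sample at 5.30 or above) and ABCF3 lowest in Ov4Carbo4 (3.93, 3.95 and 4.06). ABCC6, a liver ATP exporter, lay between -1.28 and 0.59, and each resistant line exceeded the parental line by 0.84 to 0.99 without a call. Without parental replicate 1 the ABCC6 difference was called in all 4 lines, at 1.24 to 1.39. ABCC6 and ABCF2 have near-identical pseudogene copies, so their values are uncertain.

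The clones from Ov4Carbo differed from each other in more ABC genes than Ov4Carbo4 did from Ov4Carbo. Between Ov4Carbo7 and Ov4Carbo4, which lie in 1 title series, 10 of 30 members were called (33.3%, against 20.9% of all genes). The 7 higher in Ov4Carbo7 (11.1% of all genes) were ABCB1, ABCC2, ABCC3, ABCC5, ABCA4, ABCA7 and ABCA13, and the 3 lower (9.86%) were ABCA3, ABCG1 and ABCG4. Samples did not overlap for 20 of 30 members, against 67.3% of all genes. The ABCG4 call (-1.30) was lost in 4 of the leave-one-out fits, without replicate 2 or 3 of either clone (adjusted p between 0.0542 and 0.0817). Between Ov4Carbo7 and Ov4Carbo 8 were called (26.7%, against 13.3%), 7 higher (7.72% of all genes) and ABCG1 lower (5.62%), and 19 members did not overlap (42.3% of all genes). Between Ov4Carbo4 and Ov4Carbo 1 was called (3.33%, against 14.2%), ABCA1, which was higher (7.58% of all genes higher, 6.64% lower), and 11 members did not overlap (49.6% of all genes). That call was lost without Ov4Carbo replicate 2 or 3 or Ov4Carbo4 replicate 1.

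Between the cisplatin line and the carboplatin line, 9 of 30 members were called, against 13.8% of all genes. The 5 higher in Ov4Cis (7.88% of all genes) included ABCC2, ABCA13 (by 3.92), ABCB6 and ABCA1, and the 4 lower (5.9%) were ABCC4, ABCC10, ABCG1 and ABCG4. The samples of these lines did not overlap for 15 of 30 members, against 41.0% of all genes. The count fell to 5 without Ov4Carbo replicate 3. The calls of ABCA1, ABCG1 and ABCG4 in this comparison were each lost in more than 1 leave-one-out fit, with adjusted p up to 0.117, 0.145 and 0.0887, and the ABCA1 samples overlapped.

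Replicate 1 of Ov4Carbo differed from the mean of replicates 2 and 3 by more than 1 log2 unit in 5 ABC genes, described here without a test. ABCB1 was 6.43 log2 units above that mean, ABCA1 1.28, ABCA13 1.22 and ABCG2 1.05, and ABCG4 differed by -1.17. For each of these 5 genes the replicate deviated toward the Ov4Carbo7 mean, which was 2.68, 2.62, -2.97, -0.40 and -2.67. Apart from ABCB1 this direction was not particular to Ov4Carbo7. The Ov4Cis means of ABCA1, ABCA13, ABCG2 and ABCG4 lay on the same side, at 2.65, -0.70, -1.28 and -3.42. Those of ABCA1 and ABCG2 in Ov4Carbo4 did too, at 2.74 and -1.29. In ABCC2 and ABCC10 the replicate differed from that mean by -0.04 and 0.01. The Ov4Carbo7 mean of ABCC10, 3.40, itself lay between replicates 2 and 3 of Ov4Carbo. Some members with smaller deviations went away from the Ov4Carbo7 mean. Among them were ABCA3 (0.31, Ov4Carbo7 mean -0.88) and ABCB9 (0.18, Ov4Carbo7 mean 1.26). The share of all genes that deviated toward Ov4Carbo7 was not counted. Without this replicate the counts of calls stayed at 7, 2, 4 and 11 against the parental line for Ov4Cis, Ov4Carbo, Ov4Carbo4 and Ov4Carbo7, with ABCC6 in place of ABCG4 in Ov4Carbo.

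A further 3 superfamily genes do not carry an ABC symbol. CFTR, the chloride channel of cystic fibrosis, was called lower in all 4 resistant lines, from a parental mean of -0.56 to line means of -3.87, -6.25, -4.41 and -3.65, in the order Ov4Cis, Ov4Carbo, Ov4Carbo4, Ov4Carbo7. It was named after its values were seen, and the adjusted p was at most 1.42e-04. TAP1 and TAP2, the antigen peptide transporter, were not called against the parental line. TAP1 was lower in Ov4Cis than in Ov4Carbo (log2 fold change -1.37, adjusted p = 0.0299), with overlapping samples. Of 17 partners of TAP in peptide loading, 5 were called higher in Ov4Carbo7 (against 9.26% of all genes higher), led by HLA-F at 1.94. In Ov4Carbo 1 was called higher (5.76%), in Ov4Carbo4 1 higher and 1 lower (15.1% in either direction), and in Ov4Cis limma called 0, where 4 were lower at an unadjusted p under 0.05. HLA-F also lay above its parental mean of -0.46 in the other resistant lines, at 0.22 (Ov4Cis), 1.26 (Ov4Carbo) and 1.24 (Ov4Carbo4).

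Genes that act with the transporters were read from fixed lists beside the share of all genes called. Of 26 transcription factors known to regulate ABC genes 19 are in the table. Against the parental line 2 were called higher in Ov4Carbo7 (9.26% of all genes higher), 1 higher in Ov4Cis (8.46%) and 1 lower in Ov4Carbo4 (FOXO3, at -1.58, against 7.7% lower). In Ov4Carbo limma called 0 of them, where 2 were higher and 7 lower at an unadjusted p under 0.05. Between resistant lines, 4 were called higher and 1 lower in Ov4Carbo4 against Ov4Carbo (14.2% of all genes called), 3 and 2 in Ov4Carbo7 against Ov4Carbo4 (20.9%), 3 higher in Ov4Carbo7 against Ov4Carbo (7.72% higher) and 2 higher in Ov4Cis against Ov4Carbo (7.88% higher). NR1H3, the liver X receptor alpha, was higher in Ov4Carbo7 than in Ov4Carbo4 by 1.46 (adjusted p = 1.24e-04). Among 14 of 15 liver X receptor targets and partners of ABCA1 and ABCG1, 2 were called higher and 2 lower in Ov4Carbo7 (9.26% and 7.75% of all genes). In Ov4Cis 2 were higher and 1 lower (8.46% and 7.41%), and in Ov4Carbo and Ov4Carbo4 1 each was higher (5.76% and 7.43%). In Ov4Carbo7 against the parental line, APOE, the apolipoprotein that accepts cholesterol, was lower (log2 fold change -4.61, SE 0.54, adjusted p = 2.70e-05). NPC1, which moves cholesterol out of lysosomes, was higher in the same comparison by 1.64 (adjusted p = 1.04e-04). The APOE mean was 4.02 (SD 0.86) in the parental line and -0.59 (SD 1.23) in Ov4Carbo7. In the other lines the APOE mean was 2.04 (Ov4Cis), 3.95 (Ov4Carbo) and 2.79 (Ov4Carbo4). Of 20 peroxisome genes that work beside the ABCD proteins, 1 was called higher in Ov4Cis (CROT, by 1.30, against 8.46% of all genes higher), 1 higher and 1 lower in Ov4Carbo7 (17.0% in either direction), and 2 lower in Ov4Carbo4 (7.7% lower). Between Ov4Carbo7 and Ov4Carbo4 5 were higher and 1 lower (11.1% and 9.86%). ACSL1, an acyl-CoA synthetase, was higher in Ov4Carbo7 than in Ov4Carbo4 by 2.11.

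Solute carriers of organic ions and drugs bring in or exchange drugs and metabolites. Of 25 listed, 14 are in the table. In Ov4Carbo7 6 were called higher and 1 lower (17.0% of all genes called), in Ov4Cis 3 and 2 (15.9%), in Ov4Carbo 3 and 1 (12.7%), and in Ov4Carbo4 3 and 3 (15.1%). Their median log2 fold change was 0.62, 0.28, 0.20 and -0.03 in that order. SLC22A17, a receptor for lipocalin, was higher in Ov4Carbo7 by 4.22 (SE 0.22, adjusted p = 6.98e-08). Its mean was -3.08 in the parental line and 1.13 in Ov4Carbo7. The other resistant lines also lay above the parental line, at 0.35 (Ov4Cis), 0.35 (Ov4Carbo) and -0.23 (Ov4Carbo4). SLC47A1, the MATE1 exporter that is known to carry platinum drugs out of kidney cells, was higher in Ov4Carbo7 by 3.10 (SE 0.31, adjusted p = 8.73e-06). Its mean was -1.31 in the parental line and 1.80 in Ov4Carbo7. Here too the other resistant lines lay above the parental line, at 0.86 (Ov4Cis), 1.25 (Ov4Carbo) and 0.64 (Ov4Carbo4). SLCO3A1, an organic anion carrier, was lower in Ov4Cis (log2 fold change -6.78, SE 0.47, adjusted p = 2.94e-07). From a parental mean of 2.22 it was also low in Ov4Carbo4 (-1.67), but not in Ov4Carbo (1.67) or Ov4Carbo7 (2.02).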

How the data were processed

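The authors deposited 1 table of log2 RPKM values, normalized by cqn (conditional quantile normalization, a correction for the length and base composition of genes), per the file headers and name. The submitters' processing notes name BWA 0.7.15-r1140, HTSeq, hg19 and GRCh37 with no role or order. The annotation, the strand setting of the counting and the threshold named in the table's title are not given in the sources used here. No depth is given, so no counting error is stated. Libraries were made with polyA capture, per the labels' protocols.

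Ensembl identifiers were matched to symbols for 16448 of 16604 genes. The members and lists were chosen with earlier results of these data known. limma 3.58.1 in R 4.3.3 (lmFit, eBayes, default settings, two-sided) was run on the deposited log2 table as a whole, 15 samples with 1 coefficient per line. Within each of 8 contrasts, p-values received Benjamini-Hochberg adjustment over all genes. The fit was tested on simulated data. Samples were grouped by the line in the labels, and replicates are the labels' biological replicates. Each of the 8 pumps is described with every sample, as were up to 10 other members with the largest range of line means among those called without overlap and with a line mean of at least 1, of which 6 qualified. Of the lists of other genes, at most 4 called members were named. Other members are named in the summary of their group. The single values of 2 members are not reported here, and both are in the counts and in the group values. RefSeq promoter windows matched 24 of 30 members. Chromosome names and gene order came from GENCODE v29.

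Same-numbered replicates did not deviate together: the correlation of their deviations was over 0.1 in 7 of 24 pairs and in all 3 pairs of 0 contrasts. The alternatives were leaving out each sample in turn, keeping only genes whose mean was at least log2 RPKM 1, the log2(RPKM + 1) scale, centring on sample medians, a variance trend, the groups compared alone, and terms for the replicate number or the title series. Python 3.11.15 with pandas 2.3.3 and matplotlib 3.10.9 made the tables and plots.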

Additional observations from a re-analysis of the deposited data

Results flagged for a closer look

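In 14 comparisons between resistant lines, a member was called while its differences from the parental line had opposite signs in the lines compared. The direct comparison tests that difference (limma, adjusted p under 0.05 in each), and both differences share the parental samples.

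Between Ov4Carbo7 and Ov4Carbo4 these were ABCC3 (1.85, from 1.42 and -0.43 against the parental line), ABCA13 (2.45, from 1.62 and -0.83), ABCA4 (1.5, from 1.17 and -0.33), ABCA7 (1.21, from 1.16 and -0.05), ABCC5 (1.12, from 0.56 and -0.56) and ABCG1 (-2.40, from -1.36 and 1.04). Between Ov4Carbo7 and Ov4Carbo they were ABCA4 (1.24), ABCA13 (1.65) and ABCG1 (-1.64), where the Ov4Carbo difference from the parental line was -0.07, -0.03 and 0.28. Between Ov4Cis and Ov4Carbo they were ABCC10 (-1.06, from -0.45 and 0.61), ABCC4 (-1.07, from -0.89 and 0.18), ABCB6 (1.16, from 1.08 and -0.08), ABCA13 (3.92, from 3.89 and -0.03) and ABCG1 (-1.31, from -1.04 and 0.28). Of these, the samples of ABCC10 lay below the parental ones in Ov4Cis and above them in Ov4Carbo without overlap, and those of ABCC3, ABCC5 and ABCA13 lay below them in Ov4Carbo4 and above them in Ov4Carbo7 without overlap.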

How the results depend on the processing

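Of the 52 calls of members over the 8 comparisons, 52 held with centring on the sample median and with a variance trend, 51 with a replicate block, 43 with only the groups compared, 33 with a term for the title series and 14 on log2(RPKM + 1). The filter on mean log2 RPKM 1 kept 20 of 30 members, and 18 calls among them, all held. Leaving out 1 sample at a time, 37 calls held in all 15 fits, and 8 were lost without parental replicate 1. The 1 value that reversed was ABCB1 in Ov4Carbo4 against the parental line, at -5.84 with the title series term, which is estimated from Ov4Carbo replicate 1 alone. Same-numbered samples share only a number, and the replicate block changed 1 call, ABCA1 in Ov4Carbo7 against Ov4Carbo (1.17, adjusted p = 0.0508), giving 7 members there and 24 in the F-test.

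Counts of members called that moved by over 1.5 times were as follows. With the filter they were 2 (Ov4Cis), 1 (Ov4Carbo), 2 (Ov4Carbo4) and 3 (Ov4Carbo7) against the parental line, 2 for Ov4Carbo7 against Ov4Carbo, 3 for Ov4Carbo7 against Ov4Carbo4, 4 for Ov4Cis against Ov4Carbo, and 16 of 20 in the F-test. On log2(RPKM + 1) they were 1, 0, 2 and 4 against the parental line and 1, 4 and 1 in the last 3 comparisons. With only the groups compared they were 0 for Ov4Carbo against the parental line and 2 for Ov4Carbo4 against Ov4Carbo. With the title series term they were 4 for Ov4Carbo7 against the parental line, 3 lower for Ov4Carbo4 against Ov4Carbo and 3 for Ov4Carbo7 against Ov4Carbo. Fewer members were tested under the filter, and log2(RPKM + 1) shrinks low values by construction. The other causes were not tested.

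Leaving out 1 sample, the counts ran from 5 to 8 (Ov4Cis), 1 to 4 (Ov4Carbo), 3 to 5 (Ov4Carbo4) and 10 to 11 (Ov4Carbo7) against the parental line, 0 to 2 for Ov4Carbo4 against Ov4Carbo, 7 to 8 and 9 to 10 for Ov4Carbo7 against Ov4Carbo and Ov4Carbo4, 5 to 10 for Ov4Cis against Ov4Carbo, and 24 to 26 in the F-test. Where a count was 0, limma gave 9 (Ov4Carbo against the parental line) and 8 (Ov4Carbo4 against Ov4Carbo) members at an unadjusted p under 0.05 in the fit to all samples. Depth is unknown, so what it limits in the low members, ABCB1 and ABCA13 above all, cannot be stated.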
